A study of Rattus norvegicus with 4 samples.

Results

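The mRNA levels of 10 neuropeptide precursor genes (Vip, Gal, Calca, Calcb, Cartpt, Pnoc, Npy, Tac1, Penk and Nmu) were examined in rat pancreas. They are 10 of the 26541 genes named on the array and have 15 of its 30367 gene probes, which were found by gene symbol. The genes were selected on the log2 ratios of these same arrays, which were known when the list was made, so their ratios are given as a description without a test. Weanling male Sprague-Dawley rats were fed for 3 weeks on a purified diet that was iron-deficient (FeD, 5 ppm iron), iron-adequate (FeA, 35 ppm) or iron-overloaded (FeO, 20275 ppm). Every diet had extra sucrose, and all rats were fasted overnight before the pancreas was taken. RNA from the 6 rats of a diet was combined, so that each diet is 1 pool. Both the FeD and the FeO pool were hybridized against the FeA pool, each on 2 dual-color arrays, with the Cy3 and Cy5 labels exchanged on array 2. The study asked which pancreatic genes differ in expression when iron is low or in excess.

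The pancreas is supplied by parasympathetic, sympathetic and sensory nerves, and groups of neurons lie within the gland itself. Besides acetylcholine or noradrenaline these neurons release peptides, which are cut from longer precursors inside dense-core granules and act on G protein-coupled receptors of acinar, duct, islet, vascular and muscle cells. The cell bodies of sympathetic and sensory fibers, where most of their mRNA is held, lie in ganglia outside the gland. Several of the 10 precursors are also made by enteric neurons of the gut wall, and some by endocrine or immune cells.

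The tissue label was checked on exocrine markers, and all 14 acinar genes examined (among them Cpa1, Prss1, Pnlip and Amy2a3) were well above background in all pools. Between 61.9% and 71.5% of the 42877 gene spots were well above background in a channel, by the criterion of the scanner software. The dimmest probe that met it read 64.4 to 81.8 units of normalised intensity, depending on the array and pool, and most neuropeptide probes lay close to that level. A probe was counted as measured in a comparison when at least 1 of the 2 pools was well above background on both arrays. A gene's ratio is the mean of its measured probes, and a gene was counted as past a given log2 ratio when the mean of 1 of those probes was, its arrays did not differ in sign, and no other probe passed in the opposite direction. Levels are normalised intensities, ratios are log2 of the diet over FeA (0 means equal levels), and the error is the SD over the 2 swapped arrays. That error is technical and holds no variation among rats. Both comparisons use the same FeA pool, so their ratios are not independent of each other.

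The genes lie on 6 chromosomes of the GRCr8 assembly. Vip (chr1:44470232-44478561), Gal (chr1:210079709-210084572), Calca (chr1:178312636-178317588) and Calcb (chr1:178399634-178404654) share chromosome 1, where the paralogs Calca and Calcb are close neighbors. Cartpt is at chr2:32989215-32991794, Npy at chr4:80212111-80219310, Tac1 at chr4:36645344-36653548, Penk at chr5:21981381-21987074, Nmu at chr14:32198789-32226397 and Pnoc at chr15:43800240-43827841. The RefSeq promoter table used here held 7 of the 10 genes and did not list Calcb, Pnoc or Penk. Neuropeptide genes are a textbook class of targets of the cAMP-responsive factor CREB, whose full element TGACGTCA contains the core TGACG on both strands. The core, read on both strands in the 250 bases before the start site, was present in 6 of the 7 promoters and in 18.2% of all 33469 promoters of that length. The full element was present in Cartpt alone of the 7 and in 1.59% of all. TATAAA was found in Vip and Gal and in 12.9% of all promoters, and the AP-1 motif TGANTCA in Nmu and in 6.34%. The windows of Vip, Gal and Calca, the members with the lowest FeD ratios, are shown with those of Cartpt, which holds the full element, and of Npy, whose ratio had the opposite sign, so that the position of the core can be read. The start site is the one used in that table, and the windows of Vip, Calca, Cartpt, Tac1 and Nmu overlap the gene spans given above, which reach further upstream. The windows are written 5′ to 3′ on the strand of the gene, with TGACG on either strand in capitals.
Vip: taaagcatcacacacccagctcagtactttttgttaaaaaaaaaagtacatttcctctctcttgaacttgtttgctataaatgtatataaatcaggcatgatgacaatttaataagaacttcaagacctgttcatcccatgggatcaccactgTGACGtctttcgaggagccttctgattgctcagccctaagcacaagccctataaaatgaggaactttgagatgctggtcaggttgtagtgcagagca
Gal: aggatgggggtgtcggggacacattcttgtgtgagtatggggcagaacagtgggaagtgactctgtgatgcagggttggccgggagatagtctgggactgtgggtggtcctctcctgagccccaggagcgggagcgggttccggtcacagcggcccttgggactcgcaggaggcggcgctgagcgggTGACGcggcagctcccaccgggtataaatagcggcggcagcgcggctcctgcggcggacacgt
Calca: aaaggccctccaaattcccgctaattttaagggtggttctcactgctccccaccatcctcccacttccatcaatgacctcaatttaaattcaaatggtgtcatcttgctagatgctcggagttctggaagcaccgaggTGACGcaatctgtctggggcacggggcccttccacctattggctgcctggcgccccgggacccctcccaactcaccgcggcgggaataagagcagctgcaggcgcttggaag
Cartpt: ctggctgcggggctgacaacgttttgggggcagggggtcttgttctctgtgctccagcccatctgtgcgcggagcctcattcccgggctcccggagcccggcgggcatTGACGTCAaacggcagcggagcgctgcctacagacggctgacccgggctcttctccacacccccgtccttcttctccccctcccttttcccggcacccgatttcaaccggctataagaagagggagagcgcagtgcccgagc
Npy: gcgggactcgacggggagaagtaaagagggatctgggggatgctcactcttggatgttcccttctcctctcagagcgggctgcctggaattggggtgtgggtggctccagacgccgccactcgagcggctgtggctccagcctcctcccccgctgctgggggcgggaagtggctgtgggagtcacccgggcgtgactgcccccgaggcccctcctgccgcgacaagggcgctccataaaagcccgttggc
The Vip window is chr1:44470230-44470479 (plus strand), the Gal window chr1:210084573-210084822 (minus), the Calca window chr1:178317530-178317779 (minus), the Cartpt window chr2:32991236-32991485 (minus) and the Npy window chr4:80211861-80212110 (plus). The core began 97 bases before the start site in Vip, 63 in Gal, 112 in Calca and 142 in Cartpt, where it is part of the full element. In Tac1 and Nmu, not shown, it lay 206 and 103 bases before the start. The Npy window held none of the 4 motifs. A match of letters was not tested as a binding site.

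In FeD pancreas 8 of the 10 genes were measured (Pnoc and Penk were not), with a median log2 ratio of -0.43 beside 0.01 over all 15748 genes measured. Of the 8, 7 had a negative ratio and Npy a positive one. None passed a log2 ratio of 1 in either direction, where the share of all genes was 0.248% lower and 0.127% higher. None passed 2 either, where the shares were 0.0889% and 0.0191%. In FeO pancreas 8 genes were again measured (Cartpt and Penk were not), with a median of -0.24 beside 0.01 over 16448 genes, and 6 of the 8 were negative. At a log2 ratio of 1, Pnoc was higher and no member was lower, against 0.669% and 0.505% of all genes. At 2 there were 0 members, against 0.0608% higher and 0.134% lower. The member past the limit of 1 was Pnoc in FeO (1.70). Nearest to that limit without passing it, in FeD, were Gal (-0.82 on 1 of its 2 probes), Vip (-0.80) and Npy (0.78 as the mean of 2 probes). The offset of 50 used in the processing draws the ratios of dim probes towards 0. Members near background therefore had little room to pass either limit in the lower direction. The counts changed with the background setting, as given in the closing section. The genes were also listed with these ratios known, so nothing is read from the counts.

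**Figure D1:**
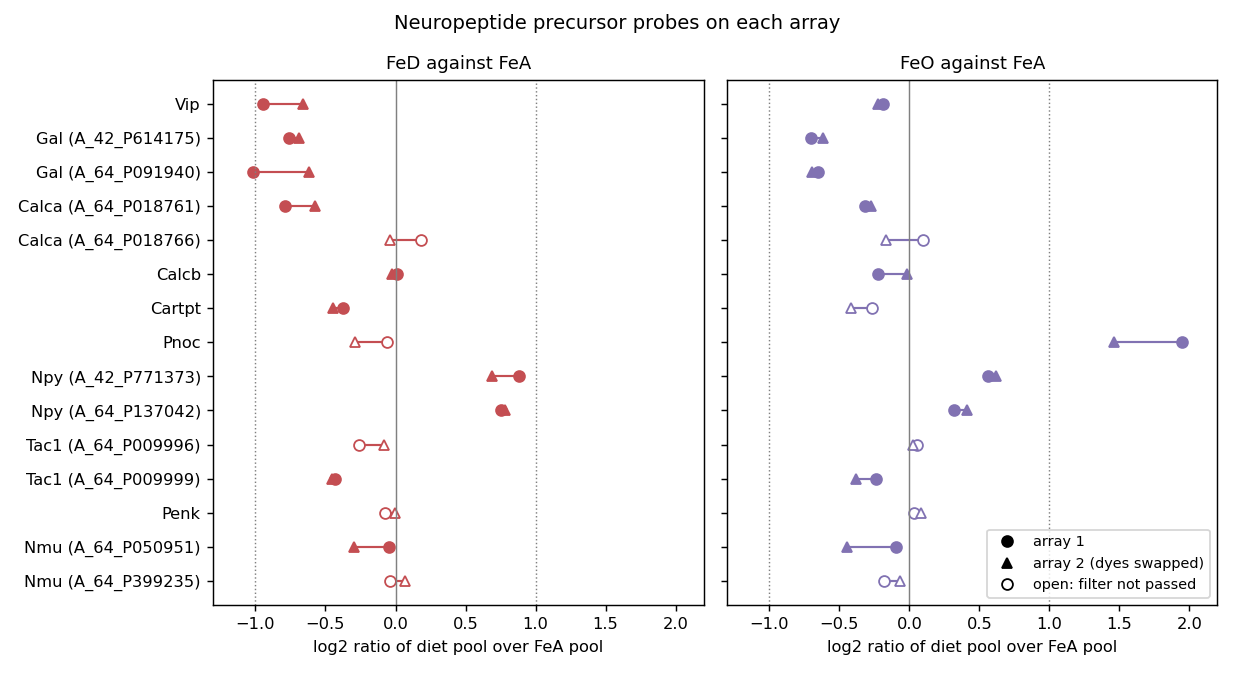
Log2 ratio of the diet pool over the FeA pool (x axis) for each of the 15 probes (y axis), in FeD (left, red) and FeO (right, purple). Circles are array 1, triangles array 2 with the dyes exchanged, open symbols probes that were not counted as measured, and dotted lines a log2 ratio of 1 in size; Vip, Gal, Calca, Cartpt and Tac1 lie to the left in FeD, Npy to the right in both panels and Pnoc far to the right in FeO.

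Vip encodes vasoactive intestinal peptide, which relaxes smooth muscle and stimulates bicarbonate and fluid secretion. On the FeD arrays its probe read 67.7 and 78.7 in the FeD pool and 130.2 and 125 in the FeA pool. The FeD pool was thus not well above background on either array, while the FeA pool was on both. The ratios were -0.94 and -0.66 (mean -0.80 ± 0.20), and Vip was at least 1.74-fold lower in FeD (1.57 without background subtraction). On the FeO arrays the probe read 135 and 127 in the FeO pool against 154 and 148 in the FeA pool. These FeO readings lay within the range of the 4 FeA readings of both comparisons (125 to 154), and the mean ratio was -0.21 ± 0.02.

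Gal, the precursor of galanin, which inhibits insulin and acetylcholine release, was lower in both diets. Its 10-spot probe (A_42_P614175) read 94.0 and 103 in the FeD pool against 159 and 165 in FeA, and 101 and 108 in the FeO pool against 165 and 166. All pools were well above background here, and all 4 diet readings lay below all 4 FeA readings. The mean ratio was -0.72 ± 0.05 in FeD (1.65-fold lower) and -0.66 ± 0.06 in FeO (1.58-fold lower). These sizes rested on the background setting, with -1.26 and -1.11 at a normexp offset of 0 and -1.74 and -1.43 with the processed signals of the scanner software. Every spot used of this probe had a negative ratio, with an SD over spots of 0.11 to 0.23. The second Gal probe (A_64_P091940) read 67.0 and 74.1 in FeD and 78.0 and 88.7 in FeO, none of them well above background. In the FeA pool it read 114 to 144, which gave bounds of at least 1.71-fold lower for FeD and of at least 1.60-fold for FeO (1.48 and 1.45 without background subtraction). The 2 probes thus gave the same direction and a like size.

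Cartpt, the precursor of the satiety peptide CART, also found in enteric and islet cells, was close to background in all pools. Its 10-spot probe read 68.0 and 73.0 in the FeD pool against 88.4 and 99.6 in FeA, and 75.9 and 71.4 in the FeO pool against 91.2 and 95.3. Neither diet pool was well above background, and the FeA pool was so on both FeD arrays but on 1 of the 2 FeO arrays. The ratios were -0.38 and -0.45 in FeD, at least 1.28-fold lower, and -0.27 and -0.42 in FeO, where no bound is given because no pool was well above background on array 1. All spots used were negative in both comparisons. Without background subtraction the FeD bound was 1.17.

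Calca encodes calcitonin and, by alternative splicing, the sensory neuropeptide CGRP, a strong vasodilator. Its probe on transcript NM_017338 read 76.9 and 98.5 in the FeD pool against 133 and 147 in FeA. On the FeO arrays it read 120.3 and 108 against 150.0 and 131. Both FeD readings and both FeO readings were below all 4 FeA readings, and the FeD pool was well above background on 1 array. The mean ratio was -0.68 ± 0.15 in FeD (1.60-fold lower) and -0.30 ± 0.03 in FeO (1.23-fold lower). These sizes too rested on the background setting, with -2.08 and -0.60 from the processed signals of the scanner software. A second Calca probe, on transcript NM_001033955, read 57.2 to 68.3 in all pools and was never well above background, so the 2 transcripts could not be compared. The ratios of the NM_017338 probe are not assigned to calcitonin or to CGRP mRNA. Calcb, which encodes beta-CGRP, behaved otherwise. Its probe was far above background on every array, at 6298 and 1362 in FeD against 6239 and 1389 in FeA, and at 4389 and 5151 in FeO against 5125 and 5212. The within-array ratios were -0.01 ± 0.03 in FeD and -0.12 ± 0.15 in FeO. The FeA reading of this single spot differed 4.49-fold over the 4 arrays, so its level on array 2 of FeD stands apart although the ratio there (-0.03) does not.

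Tac1, the precursor of substance P and neurokinin A, which contract smooth muscle and carry sensory signals, was lower in both diet pools on probe A_64_P009999. That probe read 82.0 and 80.3 in FeD against 111 and 110.3 in FeA, and 90.3 and 89.5 in FeO against 106 and 117. No diet reading overlapped the FeA readings. The mean ratio was -0.45 ± 0.02 in FeD and -0.31 ± 0.10 in FeO. Over the alternative settings the lowest values were -1.36 and -0.65. The other Tac1 probe (A_64_P009996) was well above background in 2 of its 8 readings and was not counted as measured, with mean ratios of -0.17 in FeD and 0.04 in FeO. Nmu encodes neuromedin U, a contractile peptide of enteric neurons. Its probe on NM_022239 read 104 and 95.3 in FeD against 107 and 117 in FeA, and 93.2 and 79.4 in FeO against 99.5 and 108. The mean ratios were -0.17 ± 0.18 and -0.27 ± 0.25, of the size of the difference between the arrays. A second Nmu probe stayed at background in all pools.

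**Figure D2:**
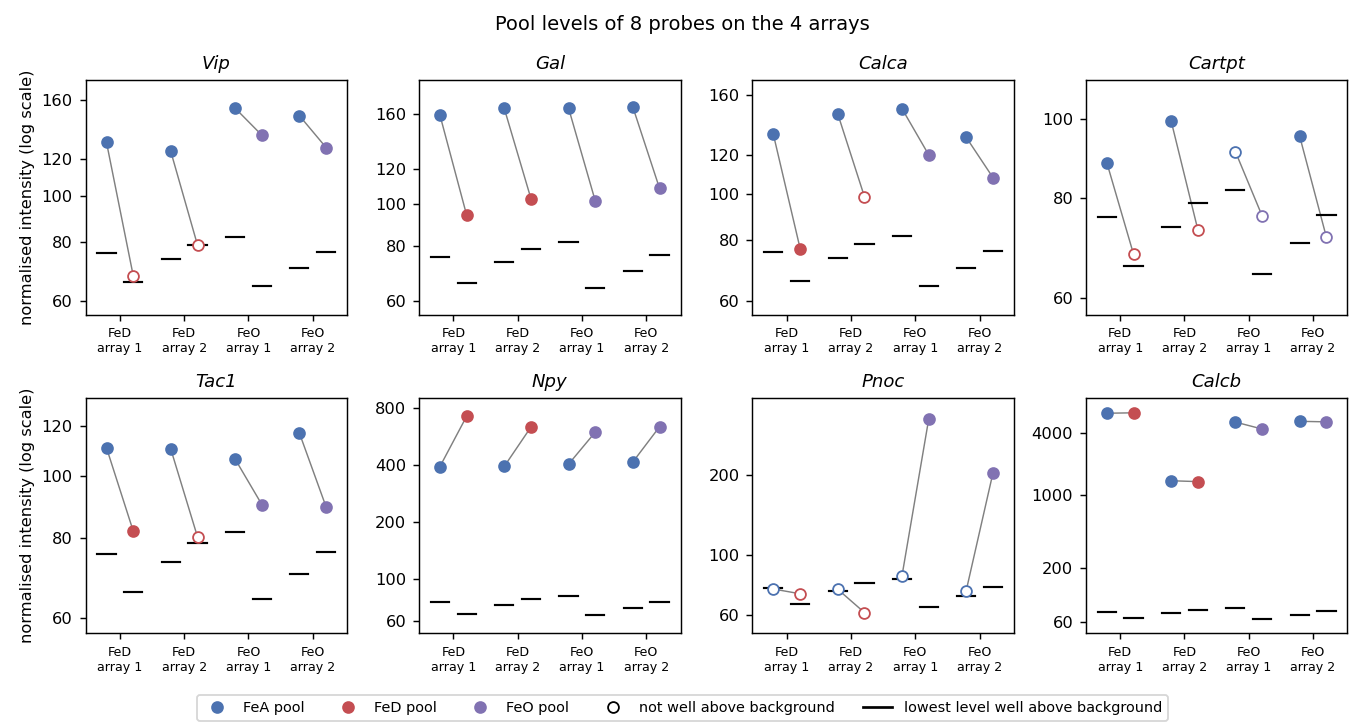
Normalised intensity (y axis, log scale, a separate range in each panel) of 8 probes on the 4 arrays (x axis), with the FeA pool in blue, FeD in red and FeO in purple and a line joining the 2 pools of an array. Open circles were not well above background, and black bars mark the lowest level that was (64.4 to 81.8); the FeD readings of Vip and Cartpt are near the bars, Npy is above FeA on every array and Pnoc leaves the bars in the FeO pool.

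Npy, the precursor of neuropeptide Y, a co-transmitter of noradrenaline in sympathetic nerves that constricts vessels, was the member with higher levels in both diet pools. Its 10-spot probe (A_42_P771373) read 722 and 633 in FeD against 391 and 392 in FeA. On the FeO arrays it read 595 and 635 against 403 and 414. The 4 diet readings were all above the 4 FeA readings, and every pool was well above background. The mean ratio was 0.79 ± 0.14 in FeD (1.73-fold higher) and 0.59 ± 0.04 in FeO (1.51-fold higher), and every spot used was positive. The second probe (A_64_P137042) gave 177 and 201 in FeD against 105 and 117 in FeA, and 178 and 193 in FeO against 143 and 145. Its mean ratios were 0.77 ± 0.02 and 0.37 ± 0.07 (1.70-fold and 1.29-fold higher), so the direction was the same on both probes while the FeO size was smaller on the second. The ratios of the second probe became 1.27 and 0.72 with the processed signals. Npy ranked 64th highest of 15748 genes in FeD and 651st highest of 16448 in FeO. In bulk RNA, a different number of cells of a type and a different amount of mRNA per cell cannot be told apart, for Npy as for the other members.

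Pnoc encodes prepronociceptin, the precursor of the opioid-related peptide nociceptin. In the FeD comparison its probe read 71.9 and 61.2 in the FeD pool and 74.9 and 74.8 in FeA, and no pool was well above background. In the FeO comparison it read 322 and 203 in the FeO pool against 83.7 and 73.9 in FeA. Only the FeO pool was well above background, on both arrays, with ratios of 1.95 and 1.46 (mean 1.70 ± 0.34). The FeA readings lay above the lowest level that counted as well above background on their array, so the bound of at least 3.25-fold higher is the fold of the readings themselves. Without background subtraction it was 2.67. Penk, the proenkephalin gene, is of the same opioid precursor family. Its 10-spot probe read 73.2 to 79.0 in all pools and was never well above background, so no fold is given, and its spots had both signs. Pnoc and Penk thus differed in that 1 left the background in the FeO pool and the other did not.

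Of 35 other neuropeptide precursors listed for comparison, 17 were measured in FeD and 18 in FeO, with median log2 ratios of 0.08 and 0.01. Tac4, which encodes hemokinin-1, a tachykinin of immune cells, was the sole gene of that list past a log2 ratio of 1, at -1.07 in FeD and -1.13 in FeO. Among the receptors of the members, 12 of 26 were measured in FeD and 13 in FeO, the medians were 0.04 in both, and 0 were past 1. The receptors Oprl1 (nociceptin), Calcrl (CGRP) and Tacr1 (substance P) were among 8 that were not well above background anywhere. Vipr1, a VIP receptor, had mean ratios of -0.22 and -0.51. Of 15 genes for peptide processing and dense-core granules, 13 and 12 were measured, with medians of -0.12 and -0.09 and 0 past 1. The granule proteins chromogranin B (Chgb, -0.45 in FeD and -0.52 in FeO) and secretogranin II (Scg2, -0.45 and -0.33) were the lowest of that list in both diets. Of the 9 peptide-degrading enzymes, Cma1, a mast cell chymase, was higher in FeO (1.69), and the list medians were -0.06 and 0.06. The medians of these 4 lists thus lay between -0.12 and 0.08 in both diets, and between -0.30 and 0.16 on single arrays.

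Markers of neurons and of other cell types were read in the same pools. Of 34 neuron markers 17 were measured in FeD and 15 in FeO, with medians of -0.05 and 0.03 (-0.13 to 0.01 on single arrays) and 0 past a log2 ratio of 1. The summed level of the neuron markers was 5076 to 6595 in FeA, 9276 and 7487 in FeD, and 7179 and 6687 in FeO. The brightest single probe, for Ret, a receptor of enteric neuron precursors, made up 36.2% of the FeA sum. Ret had mean ratios of 0.35 and 0.69, and Uchl1, a ubiquitin hydrolase of neurons, -0.51 and -0.29. Th, the first enzyme of noradrenaline synthesis and a marker of sympathetic neurons, had ratios of 0.25 and 0.29. Dbh, which completes noradrenaline, did not stand well above background in any pool, and neither did 8 other neuron markers, among them Syn1, Syt1 and Phox2a. Glia and Schwann cell markers had medians of 0.01 and 0.02, with S100b, which fat cells also express, at 1.17 in FeO. The part of neuron number in the members' ratios was not tested.

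Markers of the gut epithelium were lower in both diets. Of 26 gut epithelium markers 21 were measured, the medians were -1.16 in FeD and -1.40 in FeO, and 12 were past -1 in each. Their summed level was 13482 to 14366 in FeA, 5952 and 7073 in FeD, and 4970 and 6014 in FeO. Among the lowest were Fabp1, a fatty acid carrier of enterocytes (-4.21 and -4.47), and Lgals4, a galectin of gut epithelium (-2.18 and -3.59). By qRT-PCR, however, the study found Fabp1 in pancreas to be under the detection limit. Smooth muscle markers, 11 of 14 measured, had medians of -0.28 in FeD (-0.51 and -0.11 on its 2 arrays) and -0.01 in FeO (-0.21 and 0.24), so the FeO sign differed between arrays. Their summed levels were 13358 to 15849.8 in FeA, 7766 and 8399 in FeD and 11071 and 12816 in FeO. A single probe, for Actg2, made up 34.4% of the FeA sum. Actg2, the actin of gut and other visceral muscle, was at -1.41 in FeD and -0.53 in FeO. Of 13 enteroendocrine markers 5 were measured in FeD and 7 in FeO, with medians of -0.28 and -0.05. Pyy, the gene of peptide YY (-0.66 and -1.01), was the 1 past a log2 ratio of 1, while Cck, the gene of cholecystokinin, was at 0.03 and -0.05. The median of the gut epithelium markers was thus negative in both diets, as were the ratios of Vip, Gal, Calca and Tac1. The gut epithelium median was lower in FeO (-1.40) than in FeD (-1.16), while the smooth muscle median was less negative in FeO (-0.01) than in FeD (-0.28). Vip was at -0.80 in FeD and -0.21 in FeO, Gal at -0.77 and -0.67, Calca at -0.68 and -0.30 and Tac1 at -0.45 and -0.31. The medians of the islet, enteroendocrine and peptide processing lists were also negative in both diets and on every array. The acinar median was -0.03 in FeD (0.16 and -0.07 on its arrays) and -0.30 in FeO. That of smooth muscle changed sign between the FeO arrays. The part of gut tissue in the ratios of Vip, Gal, Calca, Cartpt and Tac1 was not tested.

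Fat cell markers were higher in the FeO pool and not in FeD. The 14 of 16 that are on the array were all measured, with medians of -0.04 in FeD and 1.51 in FeO, where 11 were past 1, Cidea on 1 of its 2 probes (gene mean 0.94). Their summed level was 13732 to 16555 in FeA, 14599 and 13054 in FeD, and 49568 and 47966 in FeO. Cfd (2.31), Car3 (2.15) and Adipoq (2.07), all abundant in fat cells, were the highest in FeO. Lymphoid markers had medians of 0.60 in FeD and -0.64 in FeO, and summed levels of 8200.1 to 8667 in FeA, 14993 and 14638 in FeD, and 4089 and 4621 in FeO. Glycam1, a lymph node vessel gene, was highest in FeD (1.15) and lowest in FeO (-2.75) of that list. Pnoc was higher in the pool in which the fat cell markers were, and their part in its ratio was not tested. Of 17 islet markers 12 were measured in FeD and 14 in FeO, with medians of -0.23 and -0.20. In FeO 11 of the 14 were negative and 3 positive. Ppy was at -1.08, Iapp at -1.02, Ins1 at -0.81 and Ins2 at -0.77 there, while Gcg was at 1.14. The summed level of the islet markers was 203365 to 252886 in FeA, 164399 and 177792 in FeD, and 126762 and 144143 in FeO.

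**Figure D3:**
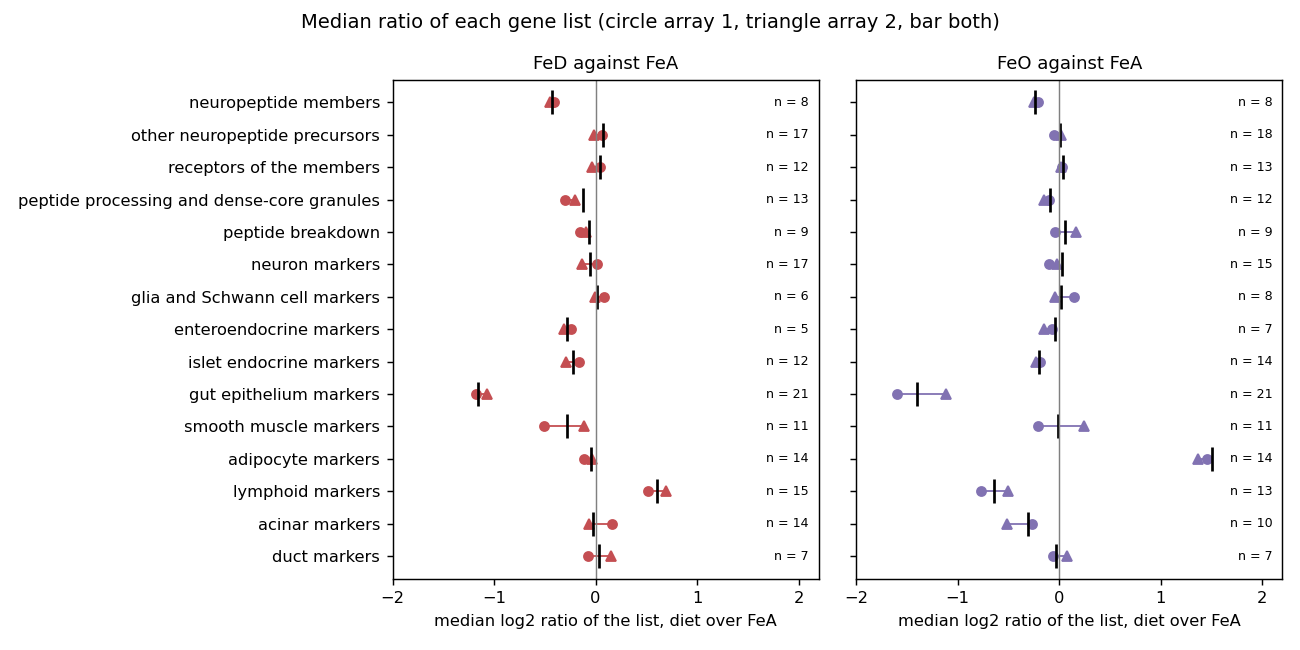
Median log2 ratio of the diet over FeA (x axis) for the neuropeptide genes and 14 comparison lists (y axis), in FeD (left, red) and FeO (right, purple), with n the genes measured. Circles are array 1, triangles array 2 and black bars the median of the mean ratios; the neuropeptide bar is at -0.43 in FeD and -0.24 in FeO, the gut epithelium bar at -1.16 and -1.40 and the fat cell bar at -0.04 and 1.51.

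The genes with ratios nearest to those of Vip and of Pnoc over the 4 arrays were sought by Euclidean distance among 15264 genes well above background in 1 pool or more of each comparison. Calca was the nearest to Vip, at a distance of 0.23. It was followed by the transcript ENSRNOT00000035050 (0.30), the smooth muscle myosin light chain kinase Mylk (0.38), the secreted lectin intelectin Itln1 (0.39) and the troponin Tnnt2 (0.45). Pnoc itself met that condition in FeO only, and its FeD ratios in the distance are between pools at background. The genes nearest to it were Adrb3, the fat cell beta-adrenergic receptor (0.27), Agt, which encodes angiotensinogen (0.27), Wfdc21 (0.39), the fat cell lipid carrier Fabp4 (0.42) and Retn, which encodes resistin, a hormone of rodent fat cells (0.43). Their FeO ratios were 1.22 to 2.04 over both arrays, around the 1.95 and 1.46 of Pnoc. The 4 ratios share the FeA pool and the likeness is a description.

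**Figure D4:**
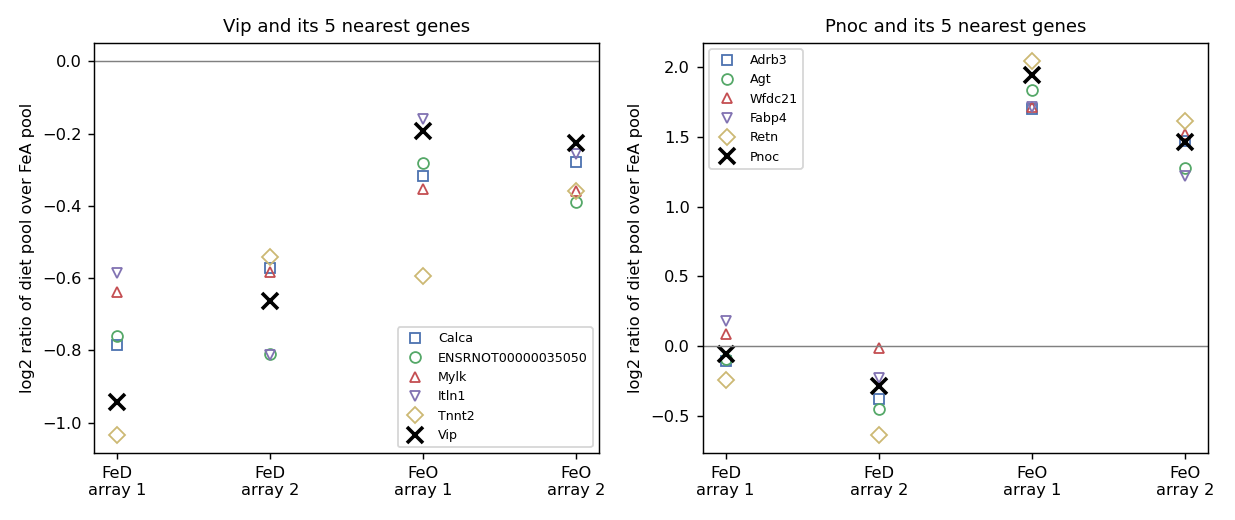
Log2 ratio of the diet over FeA (y axis) on each of the 4 arrays (x axis) for Vip (left) and Pnoc (right), shown as black crosses, with the 5 genes nearest to each as open symbols. The genes near Vip are at -0.54 or lower in FeD and at -0.16 or lower in FeO, and those near Pnoc are at 1.22 or higher in FeO.

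How far a ratio moved depended on the treatment of the background. With the processed signals of the scanner software in place of normexp with an offset, the mean FeD ratio became -3.50 for Vip, -3.07 for the second Gal probe, -2.55 for Cartpt, -2.08 for Calca and -1.36 for Tac1. The FeO ratio of Pnoc became 3.72. The 10-spot Gal probe, well above background in all pools, also moved, to -1.74 in FeD and -1.43 in FeO, and the second Npy probe to 1.27 and 0.72. The brighter probe of Npy and that of Calcb moved less, with Npy between 0.69 and 0.91 in FeD over all 7 alternatives and Calcb between -0.04 and 0.01. The signs of Vip, Gal, Calca (NM_017338), Cartpt, Npy, Tac1 (A_64_P009999) and of Pnoc in FeO were kept under all 7.

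**Figure D5:**
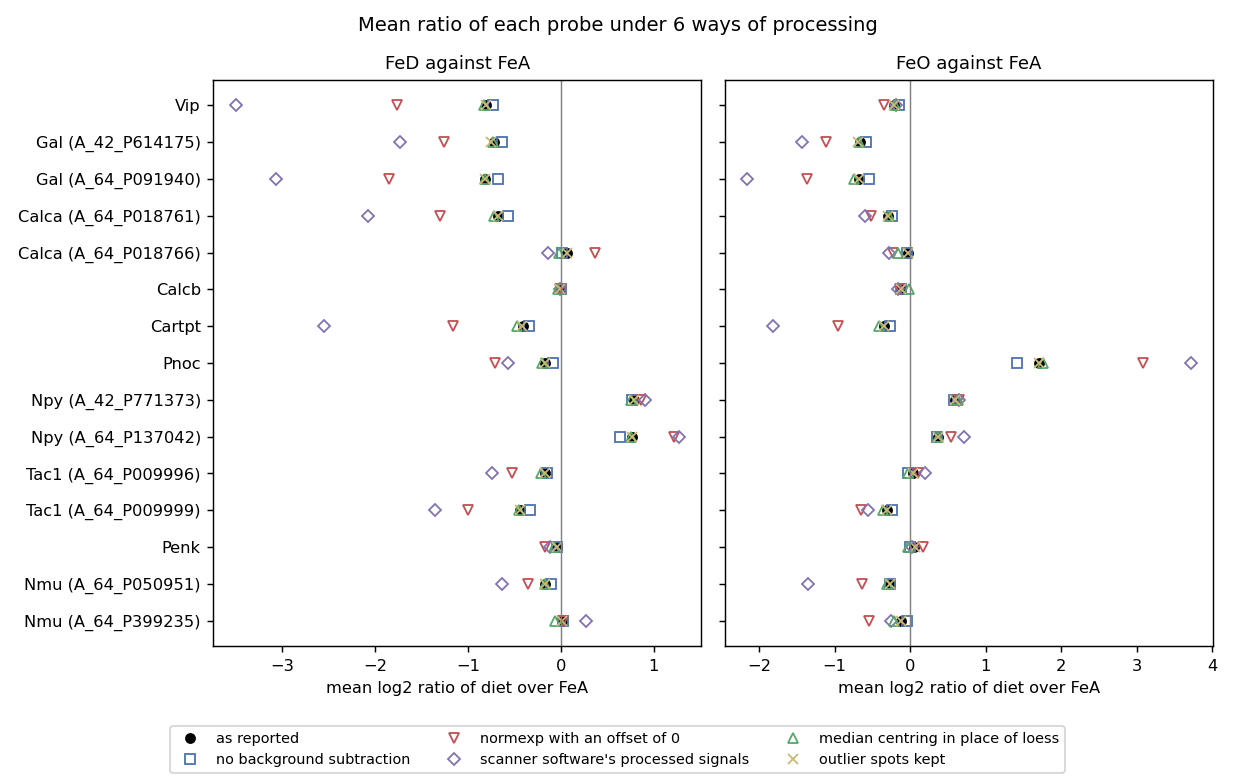
Mean log2 ratio of the diet over FeA (x axis) of each probe (y axis) under 6 ways of processing, in FeD (left) and FeO (right). Filled circles are the values reported, and the diamonds, from the processed signals, reach -3.50 for Vip in FeD and 3.72 for Pnoc in FeO while Calcb and the 10-spot Npy probe stay near their reported values.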

How the data were processed

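Per the file headers, the deposited intensity values come from Agilent Feature Extraction 10.1.1.1: median spot and local background signals, processed signals, and flags of 0 or 1 for background, saturation and outliers, all made by the authors. The authors' deposited tables also hold log2 fold changes, p-values and q-values, of which only the gene symbols were used. In R 4.3.3 with limma 3.58.1, median signals were corrected by normexp (offset 50), control probes were dropped, loess was run within arrays, and Aquantile gave pool levels. Outlier spots (722 to 938 an array) took part in these steps and were dropped after them. Ratios were turned to diet over FeA. Spots of a probe were averaged, probes were kept apart, genes took the mean of their measured probes, and counts took any measured probe past the limit. A pool was well above background on an array when more than 50% of a probe's spots were. Where neither array reached this, a bound was set against the lowest level well above background or the probe's own level, whichever was higher on that array. All 4 arrays share 1 slide and 1 scan. Each diet is 1 pool and its 2 arrays are 1 replicate, so the diets cannot be tested (the methods' t-test, run as an alternative, compares channel readings of the same pools), and precision is limited by that number. Symbols came from RefSeq accessions for 59.3% of probes, the authors' tables for 16.3% and the array for 24.4%. Members and lists were chosen with earlier results of these data known. The genes named are the members, up to 5 genes a list past a log2 ratio of 1, the tissue markers and the 5 nearest to Vip and to Pnoc, and other genes were named after their values were seen. The steps were tested on simulated data. Python 3.11.15, pandas 2.3.3 and matplotlib 3.10.9 made tables and figures. The alternatives were other background, normalization, outlier and filter settings, 1 probe per gene, single arrays and the methods' t-test on channel values.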

Additional observations from a re-analysis of the deposited data

Results flagged for a closer look

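The mean log2 ratio of Pnoc was -0.17 in FeD, where no pool was well above background, and 1.70 in FeO. Both FeD arrays were below 0 and both FeO arrays above it. Probe A_64_P009996 of Tac1 (-0.17 in FeD and 0.04 in FeO) and the Penk probe (-0.04 and 0.06) also had opposite signs, at levels at or near background. The median of the fat cell markers was -0.04 in FeD and 1.51 in FeO, and that of the lymphoid markers was 0.60 in FeD and -0.64 in FeO. None of these differences between the diets was tested, as each diet is 1 pool.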

How the results depend on the processing

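With the processed signals, 4 members were lower past a log2 ratio of 2 in FeD (Vip, Gal, Calca and Cartpt) and 1 in FeO (Gal, on its second probe alone), in place of 0, beside 0.375% and 0.517% of all genes. Pnoc alone was higher past 2 in FeO with those signals and with an offset of 0, a count of 1 each, beside 0.371% and 0.17%. Past 1, 5 members were lower in FeD (Vip, Gal, Calca, Cartpt and Tac1) and 1 was higher (Npy, on its second probe) under both of these settings, and in FeO 1 was lower with an offset of 0 (Gal) and 2 with the processed signals (Gal and Nmu). These settings also moved the share of all genes lower past 1, to 0.61% and 0.991% in FeD and 1.2% and 1.86% in FeO, and higher past 1, to 0.375% and 0.94% in FeD and 1.23% and 2.23% in FeO. Without array 1 or array 2 the FeD count of lower members past 1 was 0 to 1, the second Gal probe passing on array 1 alone (-1.02), where its gene mean did not. The FeO count of 1 (Pnoc) became 0 where both pools had to be well above background, which the FeA pool was not, and 0 after Benjamini-Hochberg adjustment of the methods' t-test. Unadjusted, that test, run on channel values of the same RNA pools, placed 1086 of 17513 probes in FeD and 1450 of 18315 in FeO below its threshold, with 1 and 0 left after adjustment. Over all alternatives, 200 of 210 member values kept their sign, 70 of 210 moved by more than the SD over the swapped arrays, and 72 of 300 list medians did. The single-array alternatives, which are among the 210, could not count as moved, because they always shift a member value by less than that SD. No paired analysis was possible because each diet is 1 pool, seen on both arrays of its comparison. Dim probes near background limit ratios to bounds.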
